A study of Mus musculus with 12 samples.

Results

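The genes described here are 10 heat shock genes of mouse macrophages, 9 of chaperones and 1 of a partner protease, chosen by name from the 24346 genes of the table. Cytosolic or nuclear proteins are encoded by 6 of them (Hspa1a, Hspa1b, Hspa8, Hsph1, Hsp90aa1 and Dnajb1) and mitochondrial proteins by the other 4 (Hspd1, Hspe1, Hspa9 and Lonp1). All 10 were listed in the table and passed the filter on low values. The design crosses stress of the endoplasmic reticulum (ER) with an inflammatory stimulus, read out by RNA sequencing of wild-type macrophages grown from bone marrow with the growth factor M-CSF for 7 days. There were 4 groups of 3 libraries. In the first group tunicamycin (5 ug/ml, 3 h), an inhibitor of N-linked glycosylation that leaves unfolded proteins in the ER, was followed by lipopolysaccharide (LPS, 1 ng/ml, 3 h), part of the outer membrane of bacteria and a ligand of the receptor TLR4. The others received tunicamycin alone, LPS alone, or neither (control), and the sources used here do not state for how long cells with tunicamycin alone were exposed. Strain, sex and age of the mice, and whether replicates were separate animals or cultures, are likewise not stated, so p-values measure the spread between these libraries, which may be technical.

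Heat shock chaperones bind unfolded protein and let it refold. HSP70 proteins do so in cycles of ATP hydrolysis that are driven by J-domain partners such as DNAJB1 and reset by nucleotide exchange factors such as HSP110 (Hsph1), and HSP90 takes over clients that are nearly folded. In the mitochondrial matrix, mortalin (Hspa9) pulls in and folds new proteins, the HSP60 and HSP10 chamber (Hspd1 and Hspe1) encloses them, and the LON protease (Lonp1) removes those that fail. The cytosolic set is classically induced through heat shock factor 1 (HSF1), whereas ER stress is answered by a separate set of ER chaperones led by BiP (Hspa5).

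With tunicamycin the cytosolic and mitochondrial chaperone genes did not move as a block. Hspa8, the constitutive HSP70 and the most abundant of the 10 transcripts in control cells, fell 5.42-fold, while Hspa9 and Lonp1 rose 2.62-fold and 2.87-fold. Hspe1 and Hsph1 fell by less, and Hspd1, Hsp90aa1, Dnajb1 and the inducible HSP70 genes Hspa1a and Hspa1b did not pass the test. Hspa1a and Hspa1b passed when the replicate number was added to the model as a block. With LPS alone only Hspa1b passed, a call that several single libraries decided, and with the replicate block Hspa1a passed as well.

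The promoters are shown because Hspa1a and Hspa1b are near copies of each other and Hspd1 and Hspe1 share a start region, so that each pair has its regulatory sequence in common. Sequences are from RefSeq (GRCm38.p6), each in the direction of its gene and ending at the last base before the annotated start unless said otherwise. Capitals in the first pair mark GAANNTTC, a pair of the units that HSF1 recognises. Hspa1a and Hspa1b lie on chromosome 17, minus strand, and the stretches are chr17:34972157-34972406 and chr17:34959239-34959488.
Hspa1a: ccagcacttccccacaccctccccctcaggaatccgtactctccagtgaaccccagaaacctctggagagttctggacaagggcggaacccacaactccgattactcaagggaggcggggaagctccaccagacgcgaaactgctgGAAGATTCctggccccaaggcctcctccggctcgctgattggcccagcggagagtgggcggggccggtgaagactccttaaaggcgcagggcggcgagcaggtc
Hspa1b: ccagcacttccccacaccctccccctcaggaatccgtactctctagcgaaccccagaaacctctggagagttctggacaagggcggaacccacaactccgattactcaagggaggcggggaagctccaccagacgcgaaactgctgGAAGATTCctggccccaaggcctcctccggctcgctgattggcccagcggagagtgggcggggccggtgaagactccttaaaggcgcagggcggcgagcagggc
Over these 250 bases the copies differed at 3 positions (98.8% identity), and their coding sequences aligned with 11 differences over 1929 positions (99.43% identity). The next stretches hold a run of 3 units in capitals, GAA and TTC in turn with any 2 bases between them. In Hspe1 (chr1:55087948-55088147, plus strand) 2 such runs overlap. The same bases lie in 1 of the 2 windows of Hspd1, which is transcribed the other way. In Hsph1 (chr5:149636287-149636310, minus strand) the run begins at base 37 after the start.
Hspe1: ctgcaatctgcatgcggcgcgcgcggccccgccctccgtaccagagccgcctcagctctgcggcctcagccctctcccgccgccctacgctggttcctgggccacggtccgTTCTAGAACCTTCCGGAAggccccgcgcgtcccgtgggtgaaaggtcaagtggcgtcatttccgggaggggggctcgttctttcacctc
Hsph1: atgctgcagaTTCTGGAAAGTTCt
For comparison, BiP, the ER counterpart of the cytosolic HSP70 proteins, has the ER stress element, CCAAT and CCACG with any 9 bases between them, in capitals, beginning at base -65 (chr2:34771840-34772089, plus strand).
Hspa5: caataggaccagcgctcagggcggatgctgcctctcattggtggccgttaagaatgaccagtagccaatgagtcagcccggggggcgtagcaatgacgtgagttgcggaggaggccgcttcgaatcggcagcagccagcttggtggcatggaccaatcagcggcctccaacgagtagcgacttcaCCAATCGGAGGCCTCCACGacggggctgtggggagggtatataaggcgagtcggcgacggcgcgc

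RefSeq windows of 300 bases, 250 before and 50 after a start, were at hand for 7 of the 10 members, and the search did not cover Hspa8, Hsp90aa1 and Hspa9. Searched on both strands, the run of 3 units was found in 3 members (Hspd1, Hspe1 and Hsph1) and in 0.603% of all 32851 windows. Members were counted with a match in any of their windows, whereas the background is per window. Of the 2 windows of Hspd1 only 1 held a match, in the bases it shares with Hspe1. The pair of units (GAANNTTC or TTCNNGAA), which every run of 3 contains, was found in 5 members, those and Hspa1a and Hspa1b, and in 15.1% of windows. Neither TGATGNAA, a core of the elements bound by ATF4, nor the ER stress element was found in the windows of the 7 members, and these letters occurred in 3.97% and 0.119% of all windows. A match is a description of letters and not a measured binding site.

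Levels are FPKM as deposited, a measure of fragments scaled by transcript length and library size, so levels of different genes can be set side by side. How library size was set, and whether libraries were scaled further, is not stated, and read depth is unknown. Differences are log2 differences of FPKM + 1 from limma, fitted to all 12 libraries and 10311 genes with Benjamini-Hochberg adjustment over all of them, with the standard error (SE) and 0.05 as threshold. Libraries of one group correlated across genes at Pearson's r of 0.9726 to 0.9857. Macrophage markers were all present, with their summed FPKM at 15498 to 24331 with tunicamycin plus LPS, 18705 to 22267 with tunicamycin, 18977 to 24011 with LPS and 14644 to 19284 in controls. In controls all 6 T and NK cell markers and all 5 erythroid markers in the table were listed at 0. In the other groups these summed to at most 0.26 and 0.573 FPKM, both with tunicamycin alone. The 5 B cell markers summed to 0.296 to 1.07 FPKM with tunicamycin plus LPS, 1.04 to 2.66 with tunicamycin, 0.586 to 2.50 with LPS and 0.850 to 3.12 in controls. The 7 neutrophil markers in the table summed to 17.1 to 31.7 FPKM with tunicamycin plus LPS, 14.3 to 25.8 with tunicamycin, 190 to 316 with LPS and 86.7 to 126 in controls, with Mpo listed at 0 with both agents and Elane with tunicamycin alone. The 7 stromal markers summed to 33.9 to 74.2, 42.7 to 61.3, 28.4 to 37.9 and 23.7 to 35.3 FPKM in the same order of groups, with none listed at 0 throughout a group. The FPKM of all genes summed to 601943 to 666042 with tunicamycin plus LPS, 561108 to 563002 with tunicamycin, 666197 to 685010 with LPS and 603467 to 638743 in controls. These sums were lower with tunicamycin than without it and higher with LPS than without it, with no overlap between the groups compared. Chaperone genes below also moved with these agents, and the part of the sums in the results was not tested. In such bulk samples fewer cells of a type and less RNA per cell cannot be told apart.

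In control cells Hspa8 stood far above the other members at 1634 ± 97.6 FPKM (SD, n = 3 as throughout), rank 34 of the 10311 tested genes. Hspd1 (138 ± 10.0), Hspe1 (124 ± 12.3), Hsp90aa1 (115 ± 8.40) and Hspa9 (112 ± 1.21) followed, and each overlapped its neighbour in this order. Hsph1 (22.0 ± 2.94), Dnajb1 (17.9 ± 2.00), Lonp1 (17.1 ± 3.17) and Hspa1a (11.3 ± 2.92) were lower and again overlapped their neighbours, and Hspa1b was lowest at 7.60 ± 1.63 FPKM. With tunicamycin the order changed at the top. Hspa8 at 301 ± 22.8 FPKM and Hspa9 at 297 ± 31.8 FPKM overlapped, and Lonp1 at 50.8 ± 8.30 FPKM lay above Hspa1a, Dnajb1, Hsph1 and Hspa1b, which ran from 17.2 ± 4.38 down to 11.0 ± 2.87 FPKM.

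**Figure D1:**
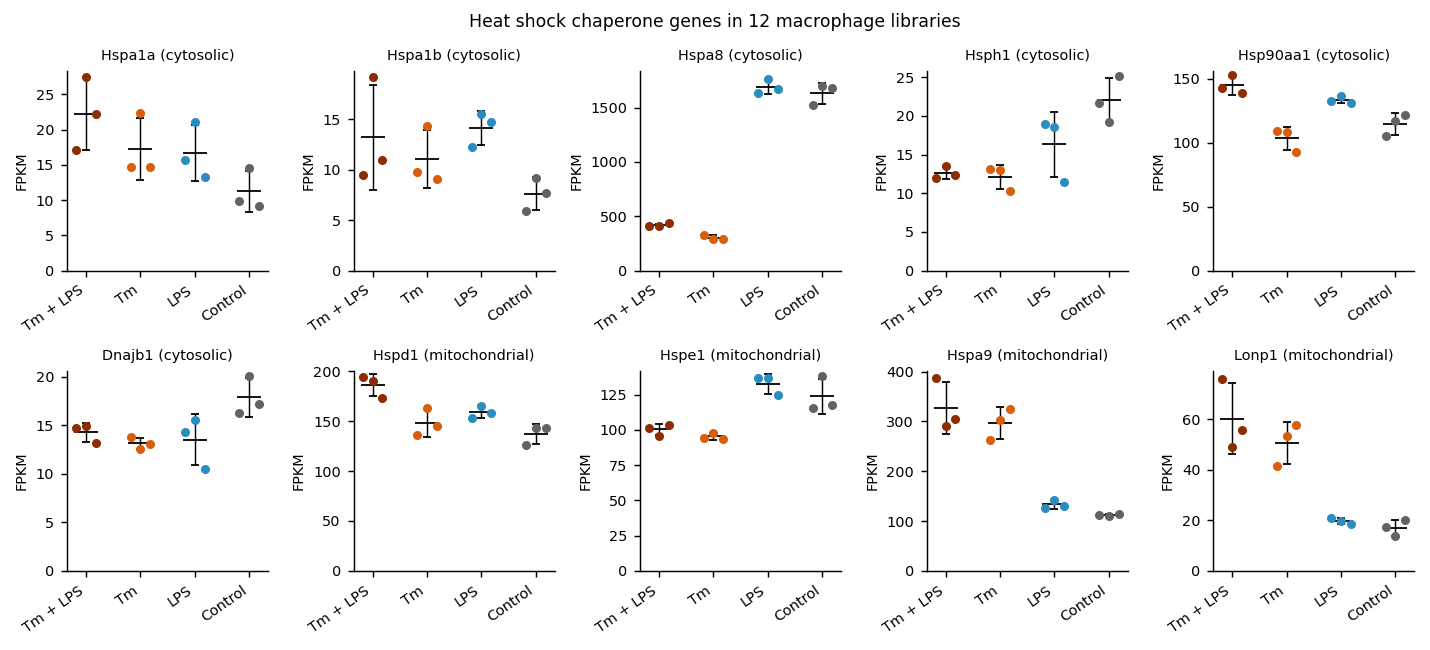
FPKM (linear axes from 0) of the 10 genes in each library, with tunicamycin written Tm; points are libraries, horizontal marks are group means and bars are SD (n = 3). The 6 libraries with tunicamycin sit between 288 and 435 FPKM for Hspa8 and the 6 without it between 1522 and 1767 FPKM, while for Hspa9 they sit between 263 and 387 against 111 to 143 FPKM.

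The comparison of tunicamycin alone with control asks what ER stress did to these genes in cells without LPS. Of the 10 members 2 were higher (background 17.9% of tested genes), 3 were lower (background 16.6%) and 5 did not pass, with 34.5% of all tested genes passing in either direction. The libraries of both groups did not overlap for 7 members (background 48.2%). The median log2 difference was -0.02 over the members and 0.03 over all tested genes, and among the cytosolic members 0 of 6 were higher and 2 lower, against 2 higher and 1 lower of the 4 mitochondrial ones.

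Hspa8 encodes HSC70, which folds new proteins, strips clathrin from vesicles and serves chaperone-mediated autophagy. It was listed at 327, 288 and 288 FPKM with tunicamycin, against 1522, 1699 and 1681 FPKM in controls. The groups lay far apart, with every tunicamycin library below every control library in the plot of levels. The log2 difference was -2.44 ± 0.08 (limma adjusted p = 1.57e-12), the 7th smallest p-value of all tested genes. With tunicamycin before LPS the values were 412, 411 and 435 FPKM, against 1637, 1767 and 1669 FPKM with LPS alone. Here too the groups did not overlap, and the gene was 4.02-fold lower (log2 -2.01 ± 0.08, adjusted p = 2.96e-11). Since Hspa8 was so abundant, its share of the summed FPKM of the 10 genes was 28.7 ± 2.86% with tunicamycin and 74.3 ± 0.175% in controls, and the sum itself was 1049 ± 26.7 against 2198 ± 127 FPKM. Without Hspa8 the other 9 genes summed to 748 ± 47.8 FPKM with tunicamycin and 564 ± 29.6 FPKM in controls. The gene body (chr9:40800984-40810087, plus strand, GENCODE M21) contains 3 small nucleolar RNA genes, of which the 2 in the table were listed at 0 in all libraries.

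The other cytosolic members moved less. Hsph1, the nucleotide exchange factor HSP110, stood at 13.1, 12.97 and 10.3 FPKM with tunicamycin, against 21.6, 19.3 and 25.1 FPKM in controls. All tunicamycin libraries were below all controls, and the gene was 1.75-fold lower (log2 -0.81 ± 0.18, adjusted p = 0.00286). With tunicamycin plus LPS it was at 12.0, 13.6 and 12.3 FPKM, against 18.9, 18.6 and 11.4 FPKM with LPS, where LPS replicate 3 lay below all libraries with both agents. That difference did not pass (log2 -0.32 ± 0.18, adjusted p = 0.22), but it did without LPS replicate 3 (log2 -0.54, adjusted p = 0.0296).

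Dnajb1, the J-domain partner that hands clients to HSP70, had 13.7, 12.5 and 13.1 FPKM with tunicamycin, against 16.3, 20.1 and 17.2 FPKM in controls. The groups did not overlap, yet the difference missed the threshold (log2 -0.41 ± 0.16, adjusted p = 0.0557), with a 95% interval of -0.75 to -0.07. It passed with the filter at 5 FPKM (adjusted p = 0.0472), with quantile normalization (0.0243) and with only the libraries of the comparison (0.0407). It also passed without LPS replicate 3 (0.034), which is not in this comparison. Beside LPS the values were 14.7, 14.9 and 13.2 FPKM with both agents, against 14.3, 15.6 and 10.5 FPKM with LPS alone, which overlapped (log2 0.09 ± 0.16, adjusted p = 0.719).

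Hsp90aa1, the stress-inducible HSP90, had 109, 109 and 92.7 FPKM with tunicamycin, against 105, 117 and 122 FPKM in controls. These overlapped, and the log2 difference of -0.15 ± 0.09 did not pass (adjusted p = 0.242), its 95% interval reaching from -0.35 to 0.05. With both agents Hsp90aa1 stood at 143, 153 and 139 FPKM, against 133, 136 and 131 FPKM with LPS, with no overlap but no pass either (log2 0.12 ± 0.09, adjusted p = 0.387).

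Hspa1a and Hspa1b encode the inducible HSP70 and, being 99.43% identical in coding sequence, may share reads in ways that the authors' counting could split, so their separate values are uncertain. Hspa1a also overlaps the gene model Gm20481 on the opposite strand, and no source used here states whether counting used strand. With tunicamycin Hspa1a was at 14.7, 22.3 and 14.7 FPKM, against 9.93, 14.6 and 9.24 FPKM in controls. The lowest tunicamycin library lay just above the highest control, and the difference of log2 0.57 ± 0.22 missed the threshold (adjusted p = 0.0581). Hspa1b was at 9.73, 14.3 and 9.06 FPKM, against 5.92, 9.19 and 7.69 FPKM, which overlapped (log2 0.48 ± 0.24, adjusted p = 0.137). The Hspa1a difference passed without control replicate 2 (adjusted p = 0.0237) and without replicate 1 (0.0462) or 2 (0.0497) of both agents. With the replicate number as a block in the limma model, both Hspa1a (adjusted p = 0.0079) and Hspa1b (0.0488) passed. As 1 summed row the pair gave a log2 difference of 0.55 ± 0.21 (adjusted p = 0.053). With both agents against LPS alone neither passed, at log2 0.39 ± 0.22 for Hspa1a and -0.14 ± 0.24 for Hspa1b, with 95% intervals of -0.08 to 0.87 and -0.65 to 0.36.

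The mitochondrial members split. Hspa9, the matrix HSP70 mortalin, stood at 263, 303 and 326 FPKM with tunicamycin, against 112, 111 and 113 FPKM in controls, and was 2.62-fold higher (log2 1.39 ± 0.11, adjusted p = 7.86e-08). With both agents it had 387, 290 and 304 FPKM, against 127, 143 and 130 FPKM with LPS, 2.43-fold higher (log2 1.28 ± 0.11, adjusted p = 3.16e-07). In both comparisons every library with tunicamycin was above every library without it. Hspa9 also hosts small nucleolar RNA models within its body.

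Lonp1, the ATP-dependent protease of the matrix (chr17:56614297-56626887, minus strand), had 41.6, 53.3 and 57.6 FPKM with tunicamycin, against 17.4, 13.8 and 20.1 FPKM in controls. It was 2.87-fold higher (log2 1.52 ± 0.17, adjusted p = 4.93e-06). With both agents it was at 76.1, 48.9 and 55.8 FPKM, against 20.98, 19.6 and 18.4 FPKM with LPS, 2.92-fold higher (log2 1.54 ± 0.17, adjusted p = 5.67e-06). Replicate 1 with both agents was the highest library for Hspa9 and for Lonp1, and no pair of groups with and without tunicamycin overlapped.

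Hspd1 and Hspe1 encode the barrel and the lid of the same folding chamber, and their gene bodies overlap by 112 bases at the start on opposite strands (chr1:55077835-55088243, minus strand, and chr1:55088132-55091307, plus strand). GENCODE also names 5 pseudogenes after Hspd1 and 6 after Hspe1, none of them in the table, so their values are uncertain where reads fit both. Hspe1 was at 94.6, 98.1 and 93.3 FPKM with tunicamycin, against 116, 138 and 118 FPKM in controls, with no overlap, and was 1.29-fold lower (log2 -0.37 ± 0.09, adjusted p = 0.00566). With both agents Hspe1 had 102, 95.6 and 104 FPKM, against 137, 136 and 125 FPKM with LPS, again with no overlap and 1.32-fold lower (log2 -0.40 ± 0.09, adjusted p = 0.00418). For its partner the test did not pass. Hspd1 had 136, 163 and 145 FPKM with tunicamycin, against 126, 143 and 143 FPKM in controls, which overlapped (log2 0.10 ± 0.09, adjusted p = 0.428, 95% interval -0.09 to 0.30). With both agents it was at 194, 190 and 173 FPKM, against 153, 166 and 158 FPKM with LPS, where the groups did not overlap but the test did not pass (log2 0.22 ± 0.09, adjusted p = 0.0891). With quantile normalization both Hspd1 differences passed, at log2 0.28 (adjusted p = 0.0284) and 0.37 (0.0075).

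The level of Hspe1 divided by that of Hspd1 put these genes side by side within each library. The ratio was 0.647 ± 0.0473 with tunicamycin and 0.9005 ± 0.0712 in controls, and 0.542 ± 0.0504 with both agents against 0.835 ± 0.0519 with LPS. Neither pair of groups overlapped, which gave an exact two-sided permutation p of 0.1, the smallest that 3 against 3 allows (0.16 after adjustment over 8 such tests). LPS alone and control overlapped (exact permutation p = 0.3). Between both agents and tunicamycin alone the ratio was lower with both agents, also without overlap and with an exact permutation p of 0.1. The level of Hspa9 over that of Hspd1 was 2.01 ± 0.201 with tunicamycin and 0.819 ± 0.0636 in controls, again without overlap and with the same exact permutation p of 0.1.

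**Figure D2:**
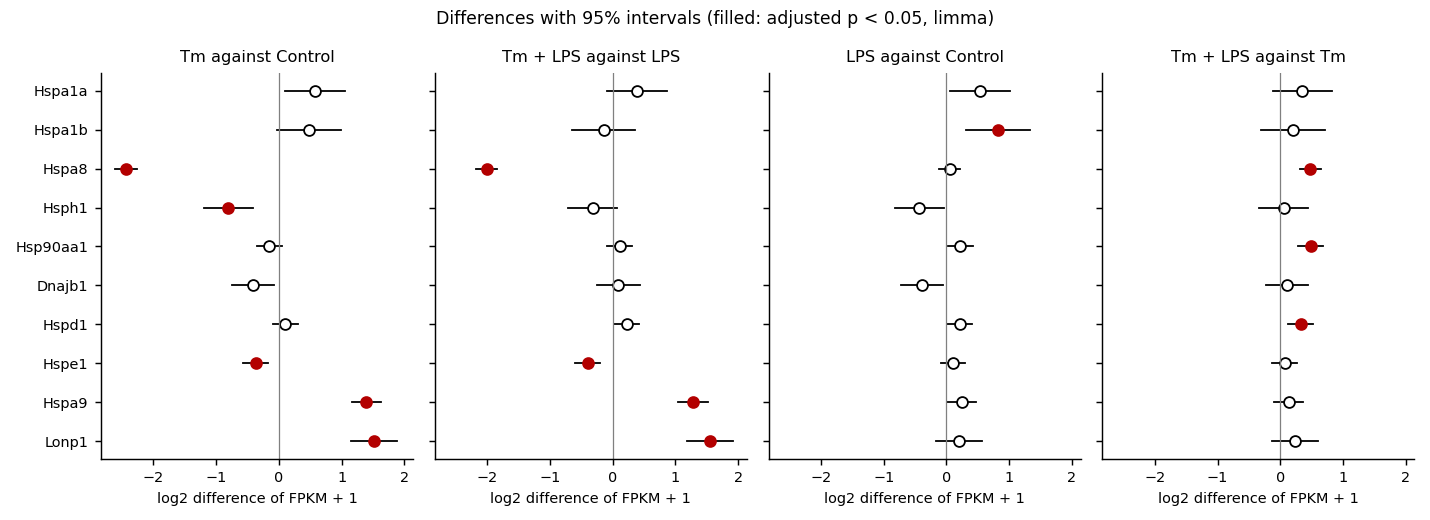
Log2 differences of FPKM + 1 (x axis) for the 10 genes in 4 comparisons, with 95% intervals from limma; filled points passed at an adjusted p under 0.05 and open points did not, and Tm is tunicamycin. Hspa8 lies at -2.44 and -2.01 in the comparisons that add tunicamycin, opposite Hspa9 and Lonp1 at 1.28 to 1.54, and the points for LPS alone against control stay within 0.83 of 0.

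Tunicamycin plus LPS against LPS alone, a comparison that shares no library with the one before, called 2 members higher (background 13.8%) and 2 lower (background 15.1%), with 6 not passed and 28.9% of all tested genes passing. The libraries did not overlap for 6 members (background 40.3%). The members' median was 0.10 and that of all genes 0.00 on the log2 scale. The 4 called members, Hspa9, Lonp1, Hspa8 and Hspe1, were also called in the same direction without LPS.

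LPS alone against control asked what the inflammatory stimulus did by itself. The test called 1 of 10 higher (background 10.5%) and 0 lower (background 7.86%), while 18.4% of all tested genes passed, and the members' median was 0.21 against 0.00 over all genes. Among all passing genes 57.2% were higher, and 48% with quantile normalization. At an unadjusted p under 0.05 there were 5 members higher (background 15.4%) and 2 lower (background 13.6%), and the libraries did not overlap for 6 members (background 33.7%). Hspa1b was at 12.2, 15.5 and 14.7 FPKM with LPS, against 5.92, 9.19 and 7.69 FPKM in controls, without overlap. It was 1.77-fold higher (log2 0.83 ± 0.24, adjusted p = 0.0227), a call that was lost without control replicate 1 (adjusted p = 0.103) or 3 (0.0511), without LPS replicate 2 (0.0819) or 3 (0.0726), and with no filter (0.0698). Its copy Hspa1a, at 15.7, 21.1 and 13.3 FPKM with LPS, overlapped the controls (log2 0.53 ± 0.22, adjusted p = 0.121). It passed without control replicate 2 (0.0488) and with the replicate number as a block (0.0202), and the summed pair passed at log2 0.69 ± 0.21 (adjusted p = 0.0305).

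Hspa8 differed little with LPS (log2 0.05 ± 0.08, adjusted p = 0.747, 95% interval -0.12 to 0.22), although quantile normalization turned it to log2 -0.27 (adjusted p = 0.0104). Small differences that did not pass were found for Hspe1 (log2 0.10 ± 0.09, adjusted p = 0.526; -0.06 with quantile normalization) and Lonp1 (log2 0.21 ± 0.17, adjusted p = 0.489). Hsph1 and Dnajb1 were lower in every LPS library than in every control, and Hsp90aa1, Hspd1 and Hspa9 higher in every one, but none of these 5 passed, with adjusted p-values of 0.109 to 0.151.

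LPS given after tunicamycin, set against tunicamycin alone, called 3 members higher (background 8.69%) and 0 lower (background 7%), with 15.7% of all tested genes passing and medians of 0.22 over the members and -0.01 over all genes. The exposure time with tunicamycin alone is not stated, so LPS and the duration of tunicamycin cannot be told apart in this comparison. Of the genes that passed, 55.4% were higher, and 44.9% with quantile normalization. At an unadjusted p under 0.05 there were 3 members higher and 0 lower, against 14.5% and 13.7% of all tested genes. Hspa8 was at 412, 411 and 435 FPKM with both agents, against 327, 288 and 288 FPKM with tunicamycin, 1.39-fold higher (log2 0.48 ± 0.08, adjusted p = 0.000473). Hsp90aa1 had 143, 153 and 139 FPKM, against 109, 109 and 92.7 FPKM, 1.40-fold higher (log2 0.49 ± 0.09, adjusted p = 0.0017). Hspd1 had 194, 190 and 173 FPKM, against 136, 163 and 145 FPKM, 1.25-fold higher (log2 0.33 ± 0.09, adjusted p = 0.0256). The groups did not overlap for any of the 3, as for 31.7% of all tested genes. The Hspd1 call was lost without tunicamycin replicate 1 (adjusted p = 0.11) or 3 (0.081) or without replicate 1 (0.0737) or 2 (0.058) of both agents. That call was also lost with limma's eBayes without trend (adjusted p = 0.093) and with only the libraries of the comparison (0.0599). All 3 calls were lost with quantile normalization. Hspa9 and Lonp1 overlapped here, at log2 0.13 ± 0.11 (adjusted p = 0.474) and 0.23 ± 0.17 (adjusted p = 0.422).

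Whether the LPS difference varied with tunicamycin was tested as the LPS difference with tunicamycin less that without it. It shares the limit that LPS and the duration of tunicamycin cannot be told apart. Of the 10 members 1 passed (background 1.41% higher, 1.96% lower and 3.37% in either direction). For Hspa8 the LPS difference was greater with tunicamycin by log2 0.43 ± 0.11 (adjusted p = 0.0488), close to the threshold. The call was lost when any of 10 of the 12 libraries was left out, with adjusted p-values of 0.0519 to 0.137. For the other 9 the interaction did not pass. Its 95% intervals were -0.31 to 0.25 for Hspe1, -0.44 to 0.22 for Hspa9 and -0.49 to 0.54 for Lonp1.

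Relatives of these genes in other compartments are given beside them. Hspa5, the ER member of the HSP70 family, was at 7233, 10562 and 10986 FPKM with tunicamycin, against 765, 912 and 845 FPKM in controls, 11.2-fold higher (log2 3.49 ± 0.14, adjusted p = 1.62e-11). The level of Hspa5 over that of Hspa8 was thus 22.1 to 38.2 with tunicamycin and 0.503 to 0.537 in controls. The level of Hspa8 over that of mitochondrial Hspa9 was 0.883 to 1.24 with tunicamycin and 13.5 to 15.3 in controls. In the HSP90 family the ER member Hsp90b1 rose 1.94-fold (log2 0.95 ± 0.18, adjusted p = 0.000628). The constitutive cytosolic Hsp90ab1 (log2 -0.20 ± 0.09, adjusted p = 0.0858) and the mitochondrial Trap1 (log2 0.04 ± 0.16, adjusted p = 0.883) did not pass.

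**Figure D3:**
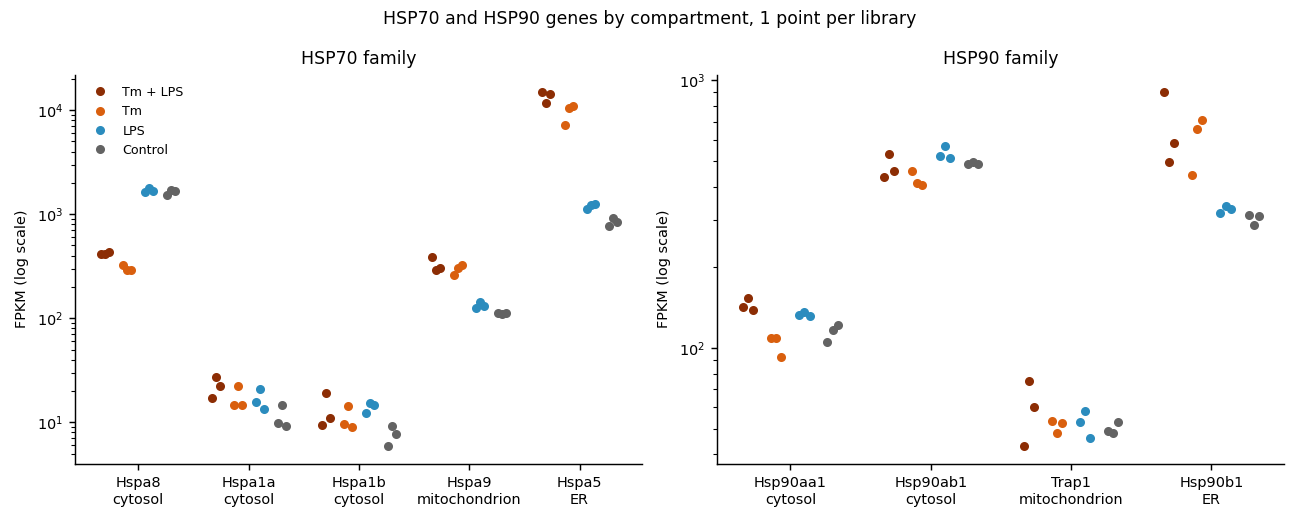
FPKM on log axes of HSP70 genes (left) and HSP90 genes (right) in the cytosol, mitochondrion and ER, with 1 point per library and the groups from left to right as tunicamycin (Tm) plus LPS, tunicamycin, LPS and control. Hspa8 and Hspa9 lie 13.5 to 15.3-fold apart in controls and at like levels with tunicamycin, while Hspa5 is above all of them with tunicamycin.

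Other genes of these pathways were taken from 12 lists without the 10 members. In the 7 cytosolic lists 17 of 62 tested genes (27.4%) passed with tunicamycin against control, and in the lists of mitochondrial chaperones, proteases and import 14 of 41 (34.1%), beside 34.5% of all tested genes. With tunicamycin against control, heat shock factors had 1 higher, 0 lower and 2 not passed of 3 tested, the riser being Hsf1 itself (12.5, 12.1 and 14.1 FPKM with tunicamycin, against 7.80, 9.22 and 8.52 FPKM in controls, log2 0.54 ± 0.17, adjusted p = 0.02). Cytosolic HSP70 and HSP110 relatives had 1 higher, 0 lower and 3 not passed of 4, with the HSP110 relative Hspa4l at log2 0.56 ± 0.19. Cytosolic J-domain genes had 4 higher, 2 lower and 6 not passed of 12, among them Dnajb2 at log2 0.86 ± 0.28, Dnajb4 at -0.85 ± 0.17 and Dnajc7 at 0.49 ± 0.10. HSP70 exchange factors and co-chaperones had 0 higher, 1 lower and 8 not passed of 9, the exception being Bag1 (log2 -0.38 ± 0.09). HSP90 and its co-chaperones had 0 higher, 4 lower and 12 not passed of 16, led by the immunophilins Fkbp5 (log2 -0.92 ± 0.24) and Fkbp4 (log2 -0.50 ± 0.11). The chaperonin TRiC and prefoldin had 1 higher (Cct4), 2 lower (Pfdn5 and Pfdn1) and 11 not passed of 14. Small heat shock proteins had 1 higher, 0 lower and 3 not passed of 4. The riser, Hspb11, is known as a part of the intraflagellar transport machinery and not as a chaperone. The medians of these 7 lists ran from -0.08 to 0.30, beside 0.03 for all genes.

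The mitochondrial lists held genes called in both directions. Other mitochondrial chaperones had 2 higher, 2 lower and 6 not passed of 10. The 2 higher were Grpel2, an exchange factor of mortalin, and Dnaja3, a J-domain partner of mortalin. Grpel2 rose 2.64-fold (log2 1.40 ± 0.16, adjusted p = 3.97e-06) and Dnaja3 rose 2.19-fold (log2 1.13 ± 0.12, adjusted p = 1.87e-06). Dnajc15, a J-domain protein of the import motor, fell 1.62-fold (log2 -0.70 ± 0.12). Grpel2 was at 16.8, 18.4 and 19.2 FPKM with tunicamycin, against 5.98, 6.83 and 5.95 FPKM in controls, and Dnaja3 at 60.4, 71.8 and 71.8 against 30.3, 28.5 and 32.7 FPKM. Other mitochondrial proteases had 1 higher (Afg3l2, log2 0.47 ± 0.13), 1 lower (the inner membrane peptidase gene Immp1l, log2 -0.89 ± 0.16) and 11 not passed of 13. Import genes had 1 higher, 7 lower and 10 not passed of 18, with Timm17a of the inner membrane translocase at log2 -0.97 ± 0.12 and the small outer membrane subunits Tomm5 and Tomm7 at -0.77 ± 0.17 and -0.74 ± 0.12.

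The genes listed as stress factors, linked to mitochondrial and integrated stress, were not all transcription factors of a stress response. Of the 6 tested, 5 were higher, 0 lower and 1 did not pass. Ddit3, which encodes CHOP, was 34.5-fold higher (log2 5.11 ± 0.15), Atf4 6.62-fold (log2 2.73 ± 0.12) and Atf5, whose worm counterpart regulates the mitochondrial unfolded protein response, 1.95-fold (log2 0.96 ± 0.27, adjusted p = 0.0106) at 2.39 ± 0.952 against 0.723 ± 0.340 FPKM. ER counterparts had 9 higher, 0 lower and 3 not passed of 12, with Dnajb9 at log2 3.15 ± 0.15 and Pdia4 at 2.31 ± 0.18 after Hspa5. The medians of the mitochondrial chaperone, protease and import lists were 0.07, 0.14 and -0.20, and those of the stress factor and ER lists 0.93 and 1.26.

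**Figure D4:**
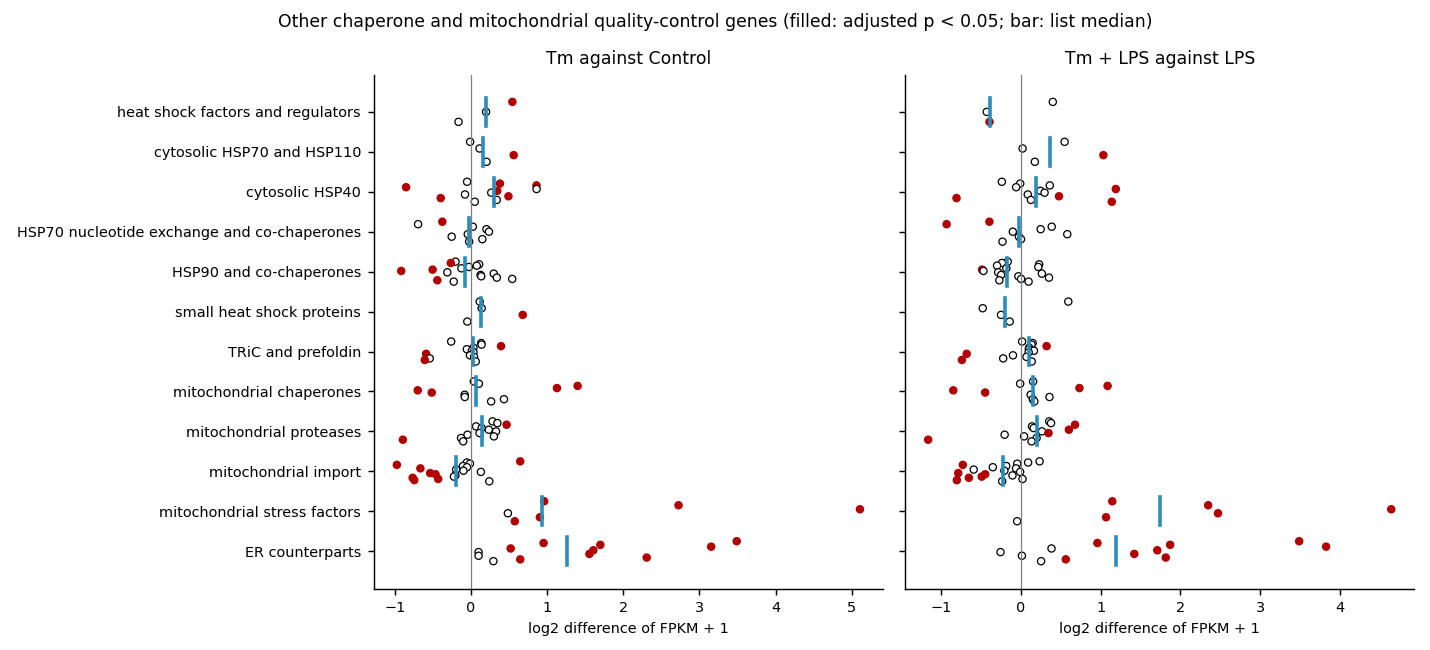
Log2 differences of FPKM + 1 (x axis) of the tested genes of 12 lists without the 10 members, for tunicamycin (Tm) against control and for tunicamycin plus LPS against LPS; filled points passed at an adjusted p under 0.05 in limma, open points did not, and bars are list medians. With tunicamycin against control the medians of the cytosolic and mitochondrial lists lie between -0.20 and 0.30 and those of the stress factors and ER counterparts at 0.93 and 1.26.

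For tunicamycin plus LPS against LPS, other mitochondrial chaperones had 2 higher and 2 lower of 10, with Grpel2 at log2 1.09 ± 0.16 and Dnaja3 at 0.73 ± 0.12, proteases 3 and 1 of 13, and import genes 0 and 6 of 18. J-domain genes had 3 higher and 1 lower of 12, HSP90 co-chaperones 0 and 1 of 16, exchange factors 0 and 2 of 9, TRiC and prefoldin 1 and 2 of 14, and HSP70 relatives 1 and 0 of 4, Hspa4l at log2 1.03 ± 0.19. Heat shock factors had 0 higher and 1 lower of 3, Hsf1 not passing (log2 0.40 ± 0.17, adjusted p = 0.0909), and small heat shock proteins 0 and 0 of 4. Stress factors had 5 higher and 0 lower of 6, and ER counterparts 8 and 0 of 12. In the 7 cytosolic lists 12 of 62 tested genes (19.4%) passed. In the lists of mitochondrial chaperones, proteases and import 14 of 41 (34.1%) did, beside 28.9% of all tested genes.

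With LPS alone the largest called change in these lists was that of Dnaja2, a J-domain partner of cytosolic HSP70, at 114, 112 and 116 FPKM with LPS, against 55.9, 57.0 and 51.9 FPKM in controls, 2.05-fold higher (log2 1.04 ± 0.09, adjusted p = 2.1e-07). The groups did not overlap. Stip1, which links HSP70 to HSP90, rose 1.57-fold (log2 0.65 ± 0.11, adjusted p = 0.000447), and it was also 1.85-fold higher with both agents than with tunicamycin (log2 0.89 ± 0.11, adjusted p = 2.38e-05). Bag3, an exchange factor known to be induced by HSF1, fell 1.45-fold with LPS (log2 -0.53 ± 0.15, adjusted p = 0.0217). In the 7 cytosolic lists 6 of 62 tested genes (9.68%) passed with LPS against control. In the lists of mitochondrial chaperones, proteases and import 4 of 41 (9.76%) did, beside 18.4% of all tested genes. With LPS against control, J-domain genes had 3 higher and 0 lower of 12, exchange factors 0 and 2 of 9, HSP90 co-chaperones 1 and 0 of 16, mitochondrial chaperones 0 and 1 of 10, proteases 0 and 1 of 13, import genes 2 and 0 of 18, stress factors 1 and 0 of 6 and ER counterparts 2 and 0 of 12, and the heat shock factor, HSP70, small heat shock protein and TRiC lists had 0 and 0 of 3, 4, 4 and 14.

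For tunicamycin plus LPS against tunicamycin, J-domain genes had 3 higher and 1 lower of 12, exchange factors 0 and 1 of 9, HSP90 co-chaperones 3 and 0 of 16, TRiC and prefoldin 2 and 0 of 14, and mitochondrial chaperones 0 and 1 of 10. Import genes had 3 and 0 of 18, stress factors 0 and 1 of 6 and ER counterparts 3 and 0 of 12, and no gene of the heat shock factor, HSP70, small heat shock protein or protease lists passed. In the 7 cytosolic lists 10 of 62 tested genes (16.1%) passed. In the lists of mitochondrial chaperones, proteases and import 4 of 41 (9.76%) did, beside 15.7% of all tested genes. The tested members of the 12 lists had no call in the interaction, beside 3.37% of all tested genes.

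Genes whose levels ran most like those of a member over the 12 libraries were found by Pearson's r of log2(FPKM + 1), a description that reflects mainly the 4 groups. Hspa9 was most like Slc3a2 (r = 0.9944), Hspa5 (0.9917) and Asns (0.9908), and Lonp1 most like Slc3a2 (0.9885), Uap1 (0.9874) and Hspa9 (0.9867). Hspa8 was most like Tuba1c (0.9935), Efhd2 (0.9928) and Rnasek (0.9916). Hspe1 was most like Rps25 (0.9742), a ribosomal protein gene, Eif1ax (0.9709) and Fabp5 (0.9687), whereas Hspd1 was most like Tra2b (0.9419). For Hspa1a, Hspa1b, Hsph1, Hsp90aa1 and Dnajb1 the closest genes were Arfgap2, Alas1, Dnase2a, Myo10 and Pitpnc1, at r from 0.8771 to 0.9483. Among the members, r was 0.7976 between Hspa1a and Hspa1b, 0.9332 between Hspa8 and Hspe1, -0.9526 between Hspa8 and Hspa9 and -0.2226 between Hspd1 and Hspe1.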

How the data were processed

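Bulk RNA from 12 macrophage libraries, 3 per group, was sequenced. The authors deposited FPKM per gene symbol. The submitters' processing notes name mm10 and, as tools, TopHat2 2.0.13, Bowtie2 2.2.3, Cufflinks 2.2.1 and SAMtools 0.1.19. Annotation, strand and scaling are not given in the sources used here, and depth is unknown.

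The 10311 genes with 1 FPKM or more in 3 or more libraries were tested on log2(FPKM + 1), which understates fold changes of low genes, by limma 3.58.1 in R 4.3.3 (group means, eBayes with trend, 5 contrasts, Benjamini-Hochberg adjustment), checked on simulated data. Ratios between genes were compared by exact permutation tests in scipy 1.17.1. Members, lists and tests were chosen with earlier results of these data known. Genes named are the members, up to 3 passing genes per list and contrast with the largest change, Hsf1, Atf5, Hspa5, Hsp90b1, Hsp90ab1 and Trap1, and up to 3 genes most like each member. Positions are from GENCODE M21 and sequences from RefSeq, both GRCm38. Alternatives changed the pseudocount (0.1), the filter (none, 5 FPKM), the scaling (by median of ratios, or quantile), the model (replicate block, no trend, robust, contrast's libraries only), summed Hspa1a and Hspa1b, or left out each library.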

Additional observations from a re-analysis of the deposited data

Results flagged for a closer look

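For Hspa8 the difference between groups with and without LPS was greater in cells given tunicamycin than in cells without it. The interaction test put this at log2 0.43 ± 0.11 (limma adjusted p = 0.0488 over 10311 genes). With tunicamycin, LPS libraries stood at 412, 411 and 435 FPKM against 327, 288 and 288 FPKM without LPS. Without tunicamycin they stood at 1637, 1767 and 1669 FPKM against 1522, 1699 and 1681 FPKM, which overlapped. The adjusted p ran from 0.0137 to 0.218 over 20 alternatives and was above 0.05 in 13 of them. The exposure time with tunicamycin alone is not stated, so LPS and the duration of tunicamycin cannot be told apart here. The cause was not tested.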

How the results depend on the processing

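Over 1050 recomputed member differences, 988 kept their direction and side of the threshold, 27 lost and 16 gained a call, and 19 changed sign, of which 0 had passed in the fit reported and 1 passed after the change. Changing the filter, the replicate block, the eBayes setting or libraries outside the comparison left each log2 difference as it was. In those its sign could not change. The median-of-ratios factors were 1.013 to 1.019 over the libraries, so that scaling could change little. For tunicamycin against control and for tunicamycin plus LPS against LPS, the calls of Hspa8, Hspa9, Lonp1 and Hspe1 held under all 21 alternatives run, with Hspa8 at log2 -2.50 to -2.20 and -2.04 to -1.74. With quantile normalization Hspa8 in LPS against control reversed to log2 -0.27 (adjusted p = 0.0104), which made 1 member lower. Uncalled values that changed sign with it were Hspe1 in LPS against control (log2 -0.056), Hspe1 (-0.13) and Hspa9 (-0.16) in tunicamycin plus LPS against tunicamycin, and the Lonp1 interaction (-0.063). The summed Hspa1a and Hspa1b row gave 0.17 in tunicamycin plus LPS against LPS, where Hspa1b alone had -0.14. With 1 library left out, uncalled values crossed 0 for Hspa8 in LPS against control (-0.00027 without control replicate 1, to 0.079). They did so in tunicamycin plus LPS against LPS for Hspa1b (-0.43 to 0.043, positive without replicate 1 of both agents) and Dnajb1 (-0.065 to 0.20, negative without LPS replicate 3), and in tunicamycin plus LPS against tunicamycin for Hspa1b (-0.078 to 0.39) and Hsph1 (-0.047 to 0.11). In the interaction they did so for Hspa1a (-0.37 to 0.00798), Hspe1 (-0.11 to 0.017) and Lonp1 (-0.15 to 0.16). With quantile normalization 0 members were higher in tunicamycin plus LPS against tunicamycin. Members higher with LPS against control numbered 0 with no filter and 2 with the replicate block, which added Hspa1a (adjusted p = 0.0202), and those higher with tunicamycin against control numbered 4 with the replicate block, by Hspa1a (adjusted p = 0.0079) and Hspa1b (0.0488). In the interaction 0 members were higher with no filter, with the replicate block and with eBayes without trend. With 1 library left out, genes passing numbered 1457 to 1975 for LPS against control, 2796 to 3670 for tunicamycin against control, 2305 to 3039 for tunicamycin plus LPS against LPS, 1064 to 1652 for tunicamycin plus LPS against tunicamycin and 229 to 353 for the interaction, the lowest of the last 2 ranges being without tunicamycin replicate 2 and without tunicamycin replicate 3. Members higher then numbered 0 to 2, 2 to 3, 2 to 2, 2 to 3 and 0 to 1, and members lower 0 to 0, 3 to 4, 2 to 3, 0 to 0 and 0 to 0, in the same order. Whether replicate numbers pair the libraries is not settled. Deviations of same-numbered libraries correlated weakly, at -0.0391 to 0.0945 (median 0.0244, none of 18 above 0.1). Those of differently numbered libraries correlated at -0.11 to 0.0458 (median -0.000385, 36 pairs). Of the 12 libraries 10 correlated best with one of their own number, so the fit without a block may ignore a weak pairing. The causes of these shifts were not tested. Without read counts, the precision of low genes such as Atf5 rests on 3 libraries a group.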
